A study of Sus scrofa with 2 samples.

Results

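In the ovary of the young pig, 2 RNAs with the lengths of the ribosomal RNAs of the mitochondrion were followed. They took a larger part of the assigned reads at 90 days of age than at 30 days. The proportion between these RNAs also differed between the ages. They are the Ensembl transcripts ENSSSCT00000019656, of 0.96 kb, called the smaller RNA here, and ENSSSCT00000019658, of 1.571 kb, called the larger RNA. They were picked by identifier and length as 2 of the 88173 features in the deposited tables, of which 400 are Ensembl transcripts, and they drew attention because of their read numbers. Their reads, covered length and RPKM (reads per 1000 bases of length and per 1000000 assigned reads) are therefore given as a description.

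The ovaries came from 6 Landrace x Yorkshire crossbred gilts, slaughtered 30 or 90 days after birth, which shared their housing and a freely available diet. RNA was taken from each animal, and equal amounts from the animals of one age were combined, so each age is 1 pool and 1 library. The sources used here do not say how the 6 animals were divided between the ages. The labels name no treatment and no engineered allele in either group. No spread between animals can be seen, and no test between the ages exists. With 1 library per age, every interval below is a 95% interval for counting error in these libraries only. Without molecular identifiers, repeat reads of 1 molecule cannot be recognised in the deposited counts. The intervals treat reads as independent, so they would be too narrow where such repeats occur. The protocol says that total RNA entered a standard Illumina preparation, and it does not say whether ribosomal RNA was removed or polyadenylated RNA selected. The tissue label could not be set against ovarian marker genes, because the tables pair no identifier with a gene name.

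The mitochondrion keeps a small circular genome that encodes the small (12S) and large (16S) ribosomal RNAs of its own ribosome, a set of transfer RNAs, and proteins of the respiratory chain and ATP synthase. In mammals both ribosomal RNA genes lie next to each other on the same strand, are transcribed into a common precursor from the heavy strand promoter region, and are cut out at the transfer RNA that separates them. Mitochondrial ribosomal RNAs are commonly abundant in total RNA. In the ovary, the oocyte holds a large store of mitochondria, and steroid hormone synthesis begins in the mitochondria of follicular and luteal cells.

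The lengths were set beside the RefSeq gene table for pig (assembly Sscrofa11.1), which lists 37 mitochondrial genes. These are 2 ribosomal RNA genes, 22 transfer RNA genes and 13 protein-coding genes. Its ribosomal RNA genes, named there by the locus tags KEF22_r02 and KEF22_r01, are 0.96 and 1.571 kb long, the same as the transcripts to the base. A single gene lies between them in that table, a transfer RNA gene of 68 bases. A length alone does not identify a gene. There, 31 genes of any kind share the length of the smaller RNA and 5 that of the larger, and in each case 1 of them is a ribosomal RNA gene. None of the 88173 identifiers matched a reference table (0 matches), so the transcripts are called by their size and not by a gene name here. No sequence of either was used here, and reads shared with near-identical copies, such as mitochondrial segments inserted in the nuclear genome, could not be assessed.

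Among the deposited features the lengths singled out these rows within the Ensembl class but not within the whole catalogue. No other Ensembl transcript had either length. Another 57 features, all Unigenes (a common name for assembled transcript sequences), had the length of the smaller RNA, with a median of 19 reads at 30 days and 16 at 90 days. The most abundant of them had 116 reads at 30 days, and the highest at 90 days was 168. A further 24 Unigenes had the length of the larger RNA, with medians of 11.5 and 5 reads and maxima of 197 and 286. Features of these lengths were thus common, and high read numbers among them were found for the Ensembl rows alone.

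The smaller RNA, of the length of the small-subunit ribosomal RNA, had 302210 reads in the 30-day pool and 1185271 in the 90-day pool, where the library was 1.14 times as deep in assigned reads. It was the 4th most abundant feature by reads at 30 days and the 3rd at 90 days. Its deposited RPKM was 33573 at 30 days and 115323 at 90 days. Scaled to the library total, its level was 3.43-fold higher in the older pool (3.42 to 3.45). The difference between the libraries was 883061 reads, while the library totals differed by 1329600 reads. Reads outside the pair differed by -824065 (90 days minus 30 days), so 883061 cannot be read as a fraction of the difference of the totals.

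The larger RNA, of the length of the large-subunit ribosomal RNA, had 2548757 reads in the 30-day pool and 3819361 in the 90-day pool. It had more reads than any other feature in both libraries. Its RPKM was 173026 at 30 days and 227082 at 90 days, and its level relative to the library total was 1.312-fold higher at 90 days (1.310 to 1.314). Per base of length it was not the highest. A transcript of 331 bases, ENSSSCT00000021151, had an RPKM of 596099 at 30 days and 425551 at 90 days, which was 3.45-fold and 1.87-fold that of the larger RNA. A transcript of 328 bases, ENSSSCT00000022034, lay close to it, with an RPKM of 168924 at 30 days and 258792 at 90 days. By RPKM the larger RNA ranked 2nd and then 3rd, and the smaller RNA 6th and then 4th.

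Taken as a pair, they held 30.41% of all assigned reads at 30 days (30.38% to 30.43%) and 46.75% at 90 days (46.72% to 46.78%). The share was 16.3 percentage points larger in the older pool, of which the smaller RNA gave 7.85 points and the larger RNA 8.49. The smaller RNA thus contributed nearly as many points as the larger one, although it started from 3.22% of the reads against 27.2%. The other members of the 4 most abundant features, the 331- and 328-base transcripts, together held 25.3% and 22.6%, a difference of -2.70 points. Ensembl transcripts as a class differed by 11.6 points between the pools. The rest of the class, without the pair, held 30.1% of all reads in the younger pool and 25.4% in the older. As a part of the reads outside the pair, that rest was 43.3% and 47.7%, so its direction depended on the denominator, while the pair was higher at 90 days on each denominator used.

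**Figure D1:**
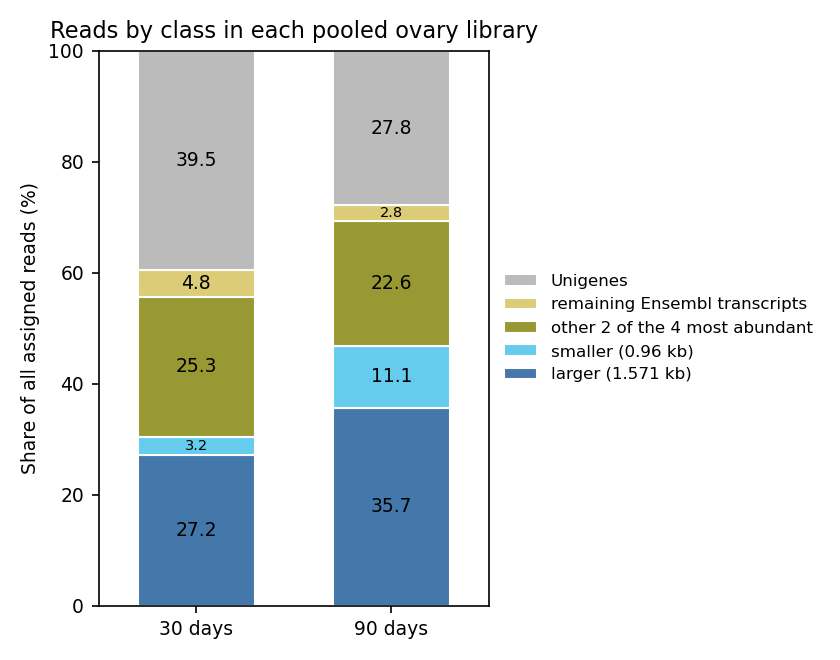
Stacked bars give the share of all assigned reads (%, vertical axis) in the 30-day and the 90-day library for the larger RNA, the smaller RNA, the other 2 of the 4 most abundant features, the remaining Ensembl transcripts and the Unigenes. The 2 lowest segments together reach 30.41% at 30 days and 46.75% at 90 days, while the remaining Ensembl transcripts hold 4.84% and 2.84%.

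Within the Ensembl class alone, the pair took 50.2% of the younger pool's reads and 64.8% of the older pool's. The larger RNA had 44.9% and 49.4% of the Ensembl reads in the younger and older pool, and the smaller RNA 5.33% and 15.3%. On this denominator the larger RNA differed by a ratio of 1.10 and the smaller by 2.88. Both were again higher at 90 days, the smaller RNA by the wider margin.

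The proportion of the pair does not depend on how the libraries are scaled, because both transcripts are counted in the same library. At 30 days the smaller RNA had 315 reads per base of length and the larger RNA 1622. At 90 days these values were 1235 and 2431. The per-base ratio of the smaller to the larger was therefore 0.194 at 30 days (0.1933 to 0.1948) and 0.508 at 90 days (0.5068 to 0.5089). Neither pool had equal numbers of reads per base of the pair, with the larger RNA 5.15-fold ahead at 30 days and 1.97-fold at 90 days. The ratio was 2.62 times as high in the older pool (2.61 to 2.63). Put as reads, 10.6% of the pair's reads fell on the smaller RNA at 30 days and 23.7% at 90 days. The intervals of the ages do not overlap, but with 1 pool per age the difference has no replicate check.

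**Figure D2:**
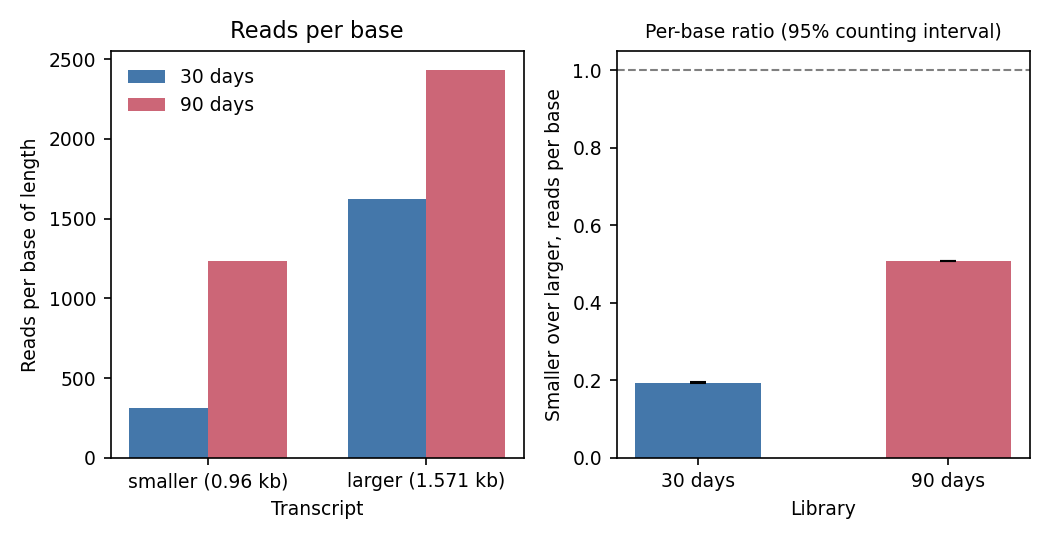
The left panel shows reads per base of length for the smaller and the larger RNA in the 30-day and 90-day libraries, and the right panel shows their ratio with its 95% counting interval; a dashed line marks equal reads per base. The ratio is 0.194 at 30 days and 0.508 at 90 days, both under 1.

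Reads lay along almost the whole length of both transcripts. The deposited coverage of the larger RNA was 100% at 30 days and 99.94% at 90 days, the latter equal to 1 base without a read. For the smaller RNA it was 98.23% at 30 days and 99.69% at 90 days, which equals 17 and 3 uncovered bases. Thus the smaller RNA had more uncovered bases in the library where it had fewer reads, and the larger RNA had 0 and 1. At 30 days, 6 features had at least 100000 reads, and the 98.23% of the smaller RNA was the lowest coverage among them. At 90 days the lowest of 6 such features was 96.25%, for a Unigene of 4993 bases. The tables give one covered percent per feature, so where the uncovered bases lie, and whether depth was even along the RNA, is not known. Bulk RNA cannot tell fewer cells of a type from less RNA per cell, and here it also cannot tell fewer mitochondria from less RNA in each.

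The comparison of the ages covered the 73973 features with at least 1 CPM (counts per 1000000 assigned reads) in at least 1 pool. A feature was called when log2((CPM at 90 days + 1)/(CPM at 30 days + 1)) reached a 2-fold difference. By this rule the smaller RNA was called higher at 90 days and the larger was not called. Of all compared features 14.6% were called higher and 36.6% lower. Nothing about the pair is read from this count, as the same contrast drew attention to it. The log2 fold was 1.78 for the smaller RNA and 0.39 for the larger RNA, against a median of -0.49 over all compared features. A larger log2 fold was found in 2.46% of the features for the former and in 31.4% for the latter. The pseudocount of 1 CPM shrinks the folds of sparse features. Listed features had a median of 20 reads at 30 days and 18 at 90 days, so nothing about the pair is read from these percentages either.

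Only 11 features reached at least 1000 CPM in both libraries, 10 Ensembl transcripts and 1 Unigene. Their median CPM ratio (90 days over 30 days) was 0.867, with a range from 0.278 to 3.43. With the total that leaves out the pair, the median was 1.13. The smaller RNA had the highest ratio of the 11 and the larger RNA the third highest, an order that scaling cannot change. With all assigned reads as the total, at least 2-fold higher were 9.09% of them, which is the smaller RNA itself, and at least 2-fold lower were another 9.09%, a transcript of 191 bases (ENSSSCT00000029152) with 65237 reads at 30 days and 20680 at 90 days. Between the pair stood the 328-base transcript, with 519525 and 908773 reads and a ratio of 1.53. A Unigene of 4993 bases (Unigene52520_All) was nearest to the larger RNA, with 167793 and 232743 reads and a ratio of 1.21. The difference of its log2 ratio from that of the larger RNA was 0.11, and that of the 328-base transcript was 0.22. No abundant feature lay as near to the smaller RNA. The nearest, the 328-base transcript, was 1.16 away on the log2 scale, and the larger RNA was next at 1.39. With 1 library per age this likeness rests on 2 libraries.

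**Figure D3:**
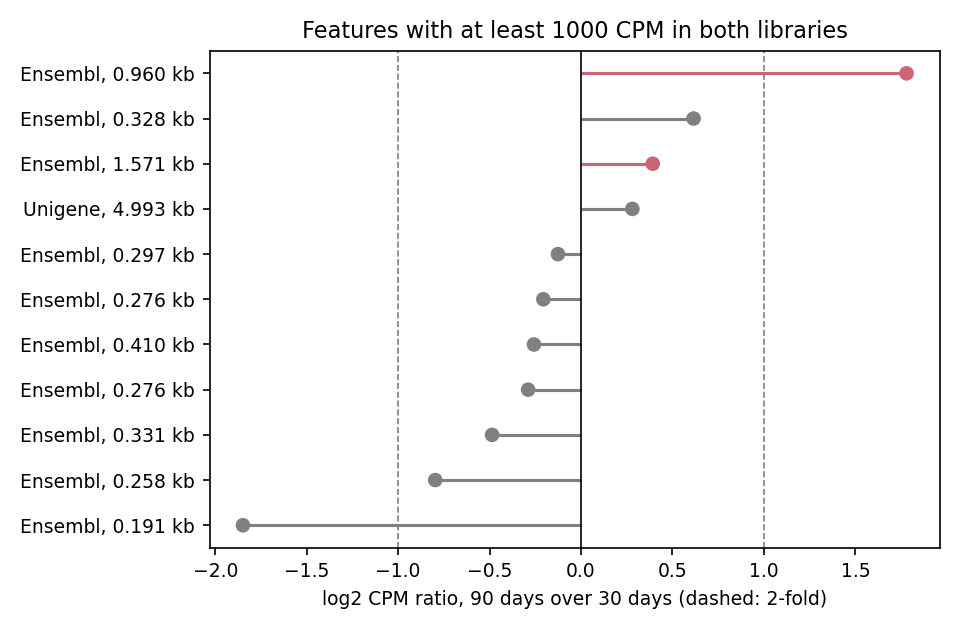
Each line gives the log2 CPM ratio (90 days over 30 days, horizontal axis) of 1 of the 11 features that reached 1000 CPM in each library, named by class and length; the smaller and the larger RNA are coloured and dashed lines mark 2-fold. The smaller RNA stands at 1.78, the next feature at 0.62 and the larger RNA at 0.39.

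Ensembl transcripts of similar length were rare and far less abundant. Apart from the pair, 7 Ensembl transcripts were at least 900 bases long, and these had between 30 and 1688 reads. Their RPKM ran from 5.17 to 81.7 at 30 days and from 2.49 to 105 at 90 days. Their CPM ratios ranged from 0.165 to 1.36 with a median of 0.800, and 3 were above 1 (4 of 7 without the pair in the total). The 3 were transcripts of 1083, 1495 and 1833 bases with ratios of 1.30, 1.29 and 1.36, near the 1.31 of the larger RNA though from few reads. None of the 7 was at least 2-fold higher under any of the 8 scalings described further on (0 of 7). At least 2-fold lower were 3 of the 7 with all assigned reads as the total, with ratios of 0.421, 0.165 and 0.482, and between 1 and 3 of them over the 8 scalings. The 2 nearest in length to the smaller RNA, of 948 and 963 bases, had 77 and 159 reads at 30 days and 37 and 30 at 90 days, both at a lower level at 90 days with that total, where the smaller RNA had a higher one.

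**Figure D4:**
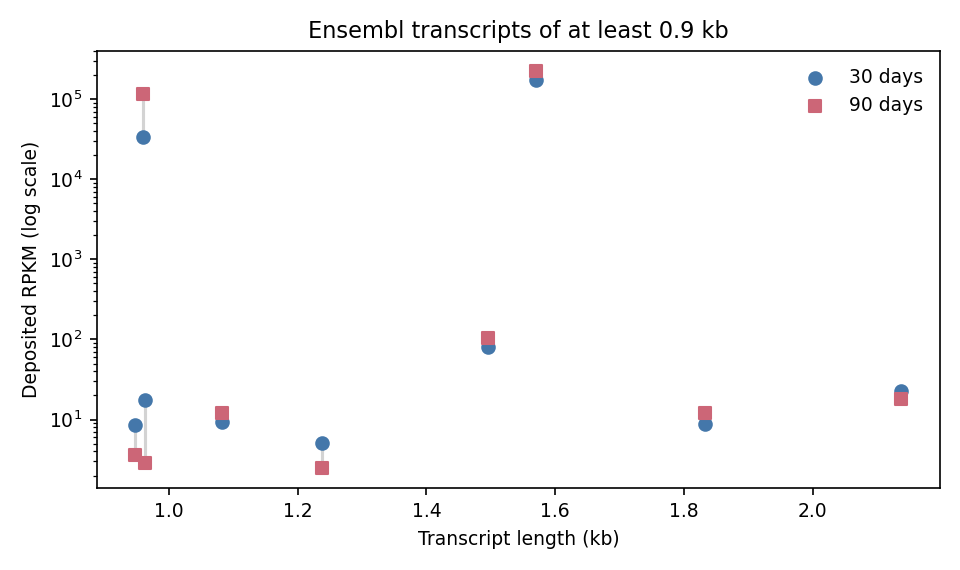
Deposited RPKM (vertical axis, log scale) is plotted against transcript length in kb for the 9 Ensembl transcripts of at least 900 bases, with circles for 30 days and squares for 90 days and a grey line joining the ages. The smaller and the larger RNA lie at or above 33573 RPKM at both ages, and the other 7 lie at or below 105.

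The remaining genes of the mitochondrial genome could not be identified among the deposited features. The transfer RNA genes of the RefSeq table are 59 to 75 bases long, and the shortest feature in the deposited tables has 91 bases. Of the 13 protein-coding genes, which include COX1 and CYTB of the respiratory chain and ATP6 of ATP synthase, 11 had a length found in no Ensembl row. The other two lengths, 204 and 297 bases (those of ATP8 and ND4L in RefSeq), were shared by Ensembl rows that carry no name, chosen here by length after their values could be seen. ENSSSCT00000031455, of 297 bases, had 30005 and 31391 reads, a ratio of 0.916 (0.902 to 0.931) with all assigned reads in the total and of 1.20 without the pair. Of the 204-base rows, ENSSSCT00000024114 had 7347 and 1921 reads, and ENSSSCT00000027120 had 6863 and 4670, with ratios of 0.229 and 0.596. The 204-base rows were below 1 under each of the 8 scalings, and the direction of the 297-base row depended on the scaling. A shared length does not make these rows mitochondrial. Unigenes also shared the length of each of the 13 coding genes, for example 15 rows for COX1 and 44 for CYTB. They carry no gene name and were not examined here.

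Identifiers near those of the pair were also examined. From 16 numbers below that of the smaller RNA to 52 above that of the larger, the tables listed 4 Ensembl transcripts. Besides the pair these were ENSSSCT00000019696, of 102 bases, with 760 reads in the younger pool and 93 in the older, and ENSSSCT00000019699, of 130 bases, with 4 reads at 30 days and none at 90 days, where a count of 0 allows up to 3 reads. The single number between those of the pair was not among the listed rows. No gene name follows from an identifier.

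The level of each transcript relative to the other RNAs depended on what the libraries were scaled to. Taking the pair out of the totals left 6525539 reads in the 30-day library and 5701474 in the 90-day library. The 90-day library, which had more assigned reads in all, then had fewer. With these totals the smaller RNA was 4.49-fold higher at 90 days and the larger RNA 1.72-fold. Over 8 scalings the ratio of the smaller RNA ran from 2.88 (the total of Ensembl reads) to 4.96 (the total without the 4 most abundant features). For the larger RNA it ran from 1.10 to 1.90 with the same scalings at the ends. Both were thus higher at 90 days with each of the 8, the smaller RNA always past 2-fold and the larger never. The 328-base transcript passed 2-fold under 5 of them, in 2 cases with a counting interval that reached below 2-fold. The share of all compared features called higher was 14.6% with all assigned reads, 18.2% when the log2 ratios were centred on their median, 21.3% with TMM, 21.9% with median-of-ratios and 22.8% with upper-quartile factors. It was 14.0% with Ensembl reads, 25.4% without the pair and 30.5% without the 4 most abundant features.

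**Figure D5:**
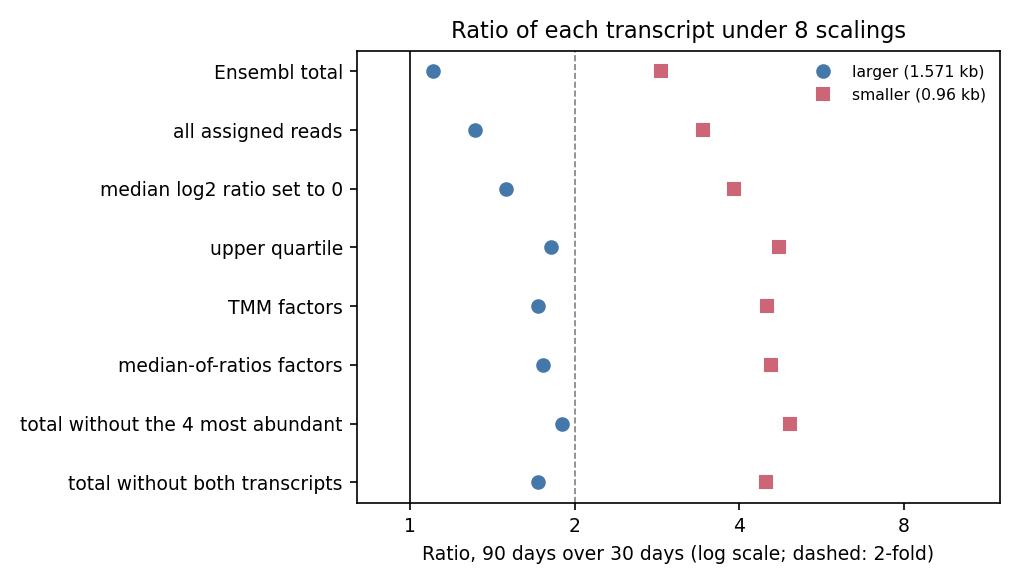
The ratio of 90 days over 30 days (horizontal axis, log scale) is shown for the larger RNA (circles) and the smaller RNA (squares) under each of 8 scalings of the libraries, with a solid line at 1 and a dashed line at 2-fold. Circles lie between 1.10 and 1.90 and squares between 2.88 and 4.96.

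Whether these 2 rows were counted in the total also changed the computed ratio of every other feature. Which total is the better baseline was not tested. The median log2 ratio of the 36142 features that reached 1 CPM in each library was -0.19 when all reads formed the total and 0.19 when the pair was left out of it, a shift of 0.39. With that total 25.4% of 78073 features were called higher (19835) and 32.9% lower (25717). With all reads in the total the counts were 10810 higher and 27103 lower. Among the called features the share of lower ones was 71.5% with all reads and 56.5% without the pair. The smaller total also raises every CPM against the fixed pseudocount and minimum, so these counts differ by more than scaling.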

How the data were processed

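One table per library was used, each for 1 pool of ovaries. Per the file headers, the authors deposited read counts (uniquely assigned, whole numbers), the length of each feature in bases and another value, the covered percent of that length. The libraries held 9376506 (30 days) and 10706106 (90 days) assigned reads. The RPKM values deposited by the authors equalled reads per kilobase and scaled to the header total in every row (relative tolerance 1e-06). The submitters' processing notes name TopHat, Cufflinks and build Sscrofa10.2 without roles. The sources used here give neither annotation nor counting tool.

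A feature listed in 1 table was given 0 reads in the other. Counts were scaled to CPM, and a 2-fold rule was applied with a pseudocount of 1 CPM and a minimum of 1 CPM. The rule was tried on simulated counts that carried counting error only. Changes were planted in features of moderate abundance, a range that leaves out the pair and the sparsest features. Shares and ratios carry exact (Clopper-Pearson) 95% intervals, and the change of the per-base ratio the conditional exact interval of the odds ratio (R 4.3.3). Scaling factors came from edgeR 4.0.16, with no test. Uncovered bases were computed from length and covered percent. Other steps used Python 3.11.15 with scipy 1.17.1. The named features were the pair, the other features among the 4 most abundant, the features of nearest ratio among those of at least 1000 CPM in both libraries, and rows near the pair by identifier. Also named were the feature of lowest ratio among those of at least 1000 CPM, and Ensembl rows with the length of a mitochondrial coding gene. The transcripts, lists and comparisons were chosen with earlier results of these data known. The total without the pair was added as an alternative for the counts of features later.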

Additional observations from a re-analysis of the deposited data

How the results depend on the processing

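No paired analysis was possible because there is a single library of either age, so none can be left out. Relative to 1.312 for the larger and 3.43 for the smaller RNA, the ratios of 90 over 30 days were 1.499 and 3.92 with the median log2 ratio set to 0, 1.81 and 4.73 with upper-quartile factors, 1.75 and 4.58 with median-of-ratios factors, 1.72 and 4.49 with TMM, 1.90 and 4.96 when the 4 most abundant features left the total, 1.72 and 4.49 without the pair, and 1.10 and 2.88 with Ensembl reads. Both stayed above 1 throughout. Deposited RPKM or a pseudocount of 1 CPM gave values inside the counting intervals. Neither setting could have moved them, as RPKM uses the same counts and totals and 1 CPM is very small beside these levels. The per-base ratio at 30 and 90 days was 0.198 and 0.509 over covered length (its change between ages was then 2.58), 0.198 and 0.519 with 50 bases taken off each length, and 0.203 and 0.531 with 100. The share of the pair was 50.2% and 64.8% of Ensembl reads, and 40.7% and 60.4% of reads without the other 2 of the 4 most abundant features. The main counts were 10810 higher and 27103 lower features, or 14.6% and 36.6% of those compared. A pseudocount of 0.1 CPM gave 17434 higher and 33094 lower, and upper-quartile factors 16767 and 21318. Leaving out the 4 most abundant features gave 24739 and 26459, and leaving out the pair 19835 and 25717. Far fewer features were tested in 2 settings, while TMM, median-of-ratios and upper-quartile factors lowered the number only slightly (73936, 73936 and 73613). A minimum of 5 CPM gave 2839 higher and 9152 lower, which was 14.5% and 46.8% of 19540 features. Ensembl transcripts alone gave 17 and 45, which was 10.9% and 28.8% of 156. Lower features made up 58.5% of those called with TMM, 57.5% with median-of-ratios, 56.0% with upper-quartile factors (factors that shift every ratio by construction), and 51.7% without the 4 most abundant features, a total that also raises every CPM against the fixed pseudocount and minimum (80995 features compared, against 73973). Counting error is small beside the range over scalings for both transcripts, and the spread between animals was not measured.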
